A study of Mus musculus with 786 samples.

Results

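Serine/arginine-rich (SR) splicing factors were followed through early blood-forming cells of the mouse. The 9 genes were Srsf1, Srsf2, Srsf3, Srsf4, Srsf5, Srsf6, Srsf7, Srsf9 and Srsf10, chosen by gene name after Srsf6 had stood out in multipotent progenitors of bled mice. All 9 were found among the 21664 genes of the single-cell tables and among the 18855 genes of the bulk table, where they stand under older names such as Sfrs6 and, for Srsf10, Fusip1. The rule used the difference between bled and normal progenitors, so that difference is given here as a description with no test.

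SR proteins bind exonic enhancer sequences in pre-mRNA through RNA recognition motifs and recruit the spliceosome through their arginine- and serine-rich tails. Kinases of the Clk and Srpk families phosphorylate these tails and thereby set where the proteins sit in the nucleus. Many SR genes limit their own output by splicing in a poison exon, an exon with an in-frame stop codon that sends the transcript to nonsense-mediated decay. In blood, SRSF2 is best known as a gene mutated in myelodysplastic syndromes.

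The cells came from bone marrow of C57BL6 mice aged 6 to 8 weeks, and the labels name no genetic change in any group. The gate for haematopoietic stem cells (HSC) was CD48-CD150+CD135-CD34-, and that for the multipotent progenitors called MPP1 had CD34+ with the other markers the same. Single cells were taken from normal mice (HSC plates 1 and 2 and MPP1 plates 1 and 2) and from bled mice (1 HSC plate and 1 MPP1 plate). HSC plate 3 is labelled as HSC, but whether its mice were normal or bled is not settled by the labels, and each of 18 bulk populations had 1 library. The labels do not give the amount of blood taken, the time after bleeding or the number of mice per plate.

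Values are FPKM, fragments scaled to transcript length and library size. A well was used as a cell where its label gave 1 cell and at least 1000 genes reached FPKM 1, and 373 of 460 such wells passed, between 48 and 73 per plate. Median genes per cell lay between 1969 and 3046.5 and were highest on the bled MPP1 plate. Read depth is unknown. HSC plate 3 stands apart in method: it was made with a C1 Fluidigm protocol and RNA spikes, the note on its mice lists both normal and bled ones, and it entered no main test between HSC and MPP1. The columns of HSC plate 1 could hold its first run or a technical repeat. The plates reuse library index pairs, 84 of them on all 7 plates, and no pair of wells held identical values. Cd34 RNA, as a check of the gate, averaged 33.1, 37.1 and 48.2 FPKM on HSC plates 1, 2 and 3 against 66.5 and 86.8 on the MPP1 plates.

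Further rows of the single-cell tables bear on these genes. The rows Sfrs3 and Sfrs7 carry RefSeq non-coding accessions of Srsf3 and Srsf7, separate from the coding rows. The single-cell row of Srsf9 itself carries a non-coding accession, while the bulk row of Srsf9 carries a coding one. Which transcripts the single-cell Srsf9 values cover is therefore uncertain, and they may not measure the same transcripts as the bulk values. The coding row of Srsf7 names one transcript in the single-cell values and another in bulk, so the same limit holds for Srsf7. In the GENCODE annotation of GRCm38 the rows Sfrs3 and Sfrs7 each map to a nonsense-mediated decay transcript with 1 exon that the coding transcript lacks. The opening of each such exon is shown because it is what separates the non-coding from the coding row, read 5′ to 3′ on the gene's strand with the in-frame stop codon in capitals.
Srsf3 poison exon: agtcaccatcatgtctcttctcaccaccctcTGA
Srsf7 poison exon: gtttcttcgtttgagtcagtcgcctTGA
The Srsf3 stretch lies at chr17:29039454-29039487 on the plus strand, at the start of exon 4 of 7, which is 456 bases long. The Srsf7 stretch lies at chr17:80205054-80205081 on the minus strand, at the start of exon 4 of 9, which is 460 bases long. The deposited values were made on mm9, so these GRCm38 positions locate the exons and were not joined to the data.

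Srsf6 had the widest spread of plate means. Its mean FPKM over cells was 43.0 on HSC plate 1, 48.9 on HSC plate 2 and 42.2 on HSC plate 3. MPP1 plates 1 and 2 had 31.2 and 26.8. Of the bled plates, HSC had 16.2 and MPP1 had 596. The bled MPP1 plate thus lay above all 6 others and the bled HSC plate below all others. On the log2(mean FPKM + 1) scale, bled MPP1 stood 4.32 above the mean of the MPP1 plates and 4.21 above the higher of them.

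That height came from 1 cell. In 1 well of the bled MPP1 plate Srsf6 was listed at 28778 FPKM, which was 96.5% of the sum over the plate's 50 cells. The next highest cell of the plate had 125.5 FPKM, and the highest cell on any other plate had 584. Without that cell the plate mean of Srsf6 was 21.1 FPKM, against 24.1 and 18.4 FPKM on the MPP1 plates without their own highest cells. Its median cell stood at 8.57 FPKM, against 4.99 and 3.85 FPKM. With the highest cell left out of every plate, bled MPP1 and the mean of the MPP1 plates were 0.0040 apart on the log2 scale, and bled MPP1 lay between them.

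The well itself was sparse. It held 1508 genes at FPKM 1 or more, against the plate's median of 3046.5, and 3 genes made up 44.5% of its total FPKM. Srsf6 was the third of them, and Dip2a, at 37474 FPKM, was the highest. Of the 9 SR genes, 3 were detected there: Srsf6, Srsf2 at 121 FPKM and Srsf3 at 124 FPKM. Among 1972 genes found in at least 50% of the plate's cells, 2 had over 90% of their sum in a single cell, and Srsf6 was one of them. No gene of that kind was found on the other 6 plates. Whether the well's value is a measurement of that cell or came about in amplification was not tested.

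**Figure D1:**
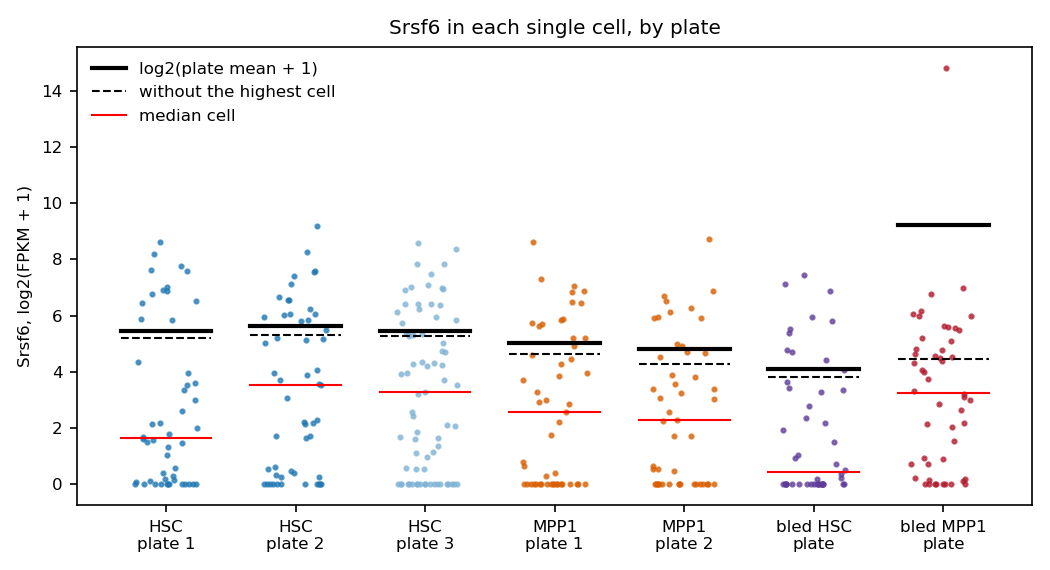
Srsf6 in each cell used, as log2(FPKM + 1), with cells as points by plate. Thick lines are the log2 of the plate mean plus 1, dashed lines the same without the highest cell, and red lines the median cell. A single bled MPP1 cell at 28778 FPKM lifts that plate's mean to 596, while without it the mean is 21.1.

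Srsf6 was found in 60.3% of all cells (225 of 373) at FPKM 1 or more. HSC plates 1, 2 and 3 had shares of 62.0%, 66.0% and 67.1%, and MPP1 plates 1 and 2 had 54.9% and 56.2%. Of the bled plates, HSC had 43.8% and MPP1 had 68.0%. The exact Clopper-Pearson 95% intervals, which cover counting error only, ran from 29.5% to 58.8% for bled HSC and from 53.3% to 80.5% for bled MPP1. The share in bled MPP1 was above both MPP1 plates and that in bled HSC below both HSC plates. Of 9122 genes found in at least 5% of cells on average, 56.7% also had a higher share in bled MPP1 than on both MPP1 plates, and 33.4% had a lower share in bled HSC than on both HSC plates. Cells could not be thinned to an equal depth, since reads are unknown, and the bled MPP1 plate had the most genes per cell. In wells labelled with no cell, Srsf6 reached FPKM 1 in 15 of 150 (10.0%), unequally by plate. It did so in 9 of 28 such wells (32.1%) on MPP1 plate 1 and 2 of 13 (15.4%) on MPP1 plate 2. On HSC plate 1 it did so in 1 of 21 (4.76%), and on HSC plates 2 and 3 in none of 12 and 11. The median no-cell well had 841 genes at FPKM 1 or more on HSC plate 1 and 669.5 on MPP1 plate 1. On the other plates it had between 147.5 (HSC plate 2) and 463 (bled MPP1). Whether some wells labelled with no cell held one was not tested.

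**Figure D2:**
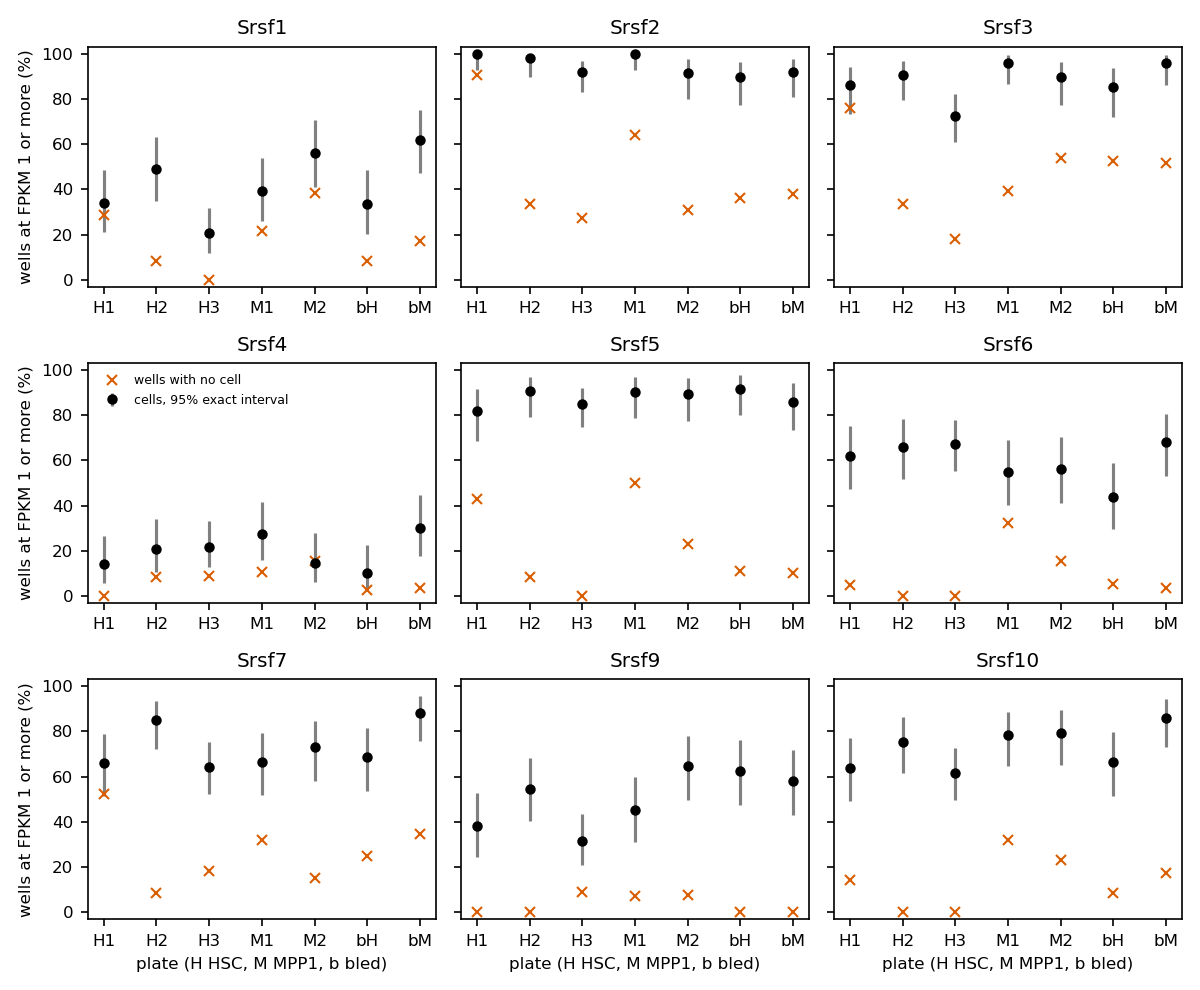
Percent of wells at FPKM 1 or more for each gene, by plate (H1 to H3 HSC, M1 and M2 MPP1, bH and bM bled). Circles are single cells with 95% exact intervals and crosses are wells with no cell. Srsf2 is found in at least 89.6% of cells on every plate and Srsf4 in at most 30.0%.

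The other 8 genes fell into frequent and rare ones. Srsf2, a factor of nuclear speckles, was found in 94.6% of cells, with plate means between 239 and 605 FPKM. Srsf3, the smallest SR protein, was found in 87.1% of cells with plate means from 146 to 214 FPKM. Srsf5 was found in 87.7% of cells with plate means from 34.3 to 114 FPKM. Srsf7, which also serves mRNA export, was found in 72.7% of cells and Srsf10, a splicing repressor when dephosphorylated, in 72.4%. Srsf9 was found in 49.3% and Srsf1, the founding SR protein, in 40.8%. Srsf4 was the rarest at 20.1%, with a median cell listed at 0 on all 7 plates.

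Several SR genes were detected together in most cells. The most frequent number detected was 6 of 9, in 95 of 373 cells (25.5%). All 9 were found in 7 cells and at most 3 in 22 cells, and no cell had fewer than 2. Whether these numbers differ from what the separate share of each gene would give was not tested, so they do not show joint expression. By plate the median cell had 5 to 7 of the 9, highest on the bled MPP1 plate, which also had the most genes per cell. In wells with no cell the median was 1 to 3 of the 9. Within plates, the number of SR genes per cell went with the number of genes per cell, at Spearman's rho between 0.37 and 0.73 across cells, which share plate and depth.

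Plate means of the less frequent genes also leaned on single cells. In 4 of 63 gene and plate pairs 1 cell held over 50% of the sum. Besides Srsf6 these were Srsf9 on MPP1 plate 2 (67.3%), and Srsf4 on MPP1 plate 2 (60.6%) and on the bled HSC plate (89.5%). For Srsf2 the highest cell held at most 10.8% of a plate's sum. For Srsf9 on the other 6 plates the highest cell held between 12.1% and 34.3%. Of all genes found in at least 50% of a plate's cells, 26 of 1533 were over 50% on MPP1 plate 2. On the bled MPP1 plate 11 of 1972 were. Srsf4 was found in only 14.6% of cells on MPP1 plate 2 and 10.4% on the bled HSC plate. No background was computed for genes so rarely found, so the count is not a trait of SR genes.

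The wells with no cell were compared with cells of the same plate over 7 plates, with limma and the plate as a block. FPKM is scaled to each well's own library, so it does not measure how much signal is found without a cell. Cells had to pass the filter on genes per well, while no-cell wells entered without it. Over all genes tested, 97.2% were higher in cells. Srsf6 was 3.87 ± 0.91 (SE) higher in cells on the log2 scale (limma adjusted p = 0.0020). This fit holds the bled MPP1 plate mean that the choice of genes rests on, and without that plate the difference of Srsf6 was 3.09 (limma adjusted p = 0.0077). Srsf10 was higher by 3.84 ± 0.76 (limma adjusted p = 0.00067). Srsf5 (2.87), Srsf2 (2.85), Srsf9 (2.78) and Srsf1 (1.84) also passed, so 6 of 9 were called higher, against a background of 71.3% of 9391 genes. That share is near the background. Without HSC plate 2, HSC plate 3 or the bled MPP1 plate the call of Srsf1 was lost, and without MPP1 plate 1 that of Srsf7 was gained.

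Srsf3, Srsf4 and Srsf7 did not pass on plate means. With the mean of log2 values over wells in place of the log2 of the mean, all 3 passed (limma adjusted p = 3.5e-06, 0.0071 and 1.9e-06). Srsf7 also passed without the plate block (limma adjusted p = 0.044). Srsf3 had 1.201 ± 0.886 (limma adjusted p = 0.22). In wells with no cell it averaged 232 FPKM on HSC plate 1 and 319 FPKM on the bled HSC plate, above the cells of those plates at 149 and 146 FPKM. On HSC plate 2 it averaged 5.46 FPKM without a cell and 207 FPKM in cells. These values are relative to each well's own library, so they do not show more Srsf3 RNA without a cell. Srsf2 was detected in 90.5% of no-cell wells on HSC plate 1, where these wells had the most genes, at a median of 841. Its share of 100% in cells there may therefore not be a measure of cells alone. With each gene's highest well left out, Srsf3 (adjusted p = 0.019), Srsf4 and Srsf7 passed the limma test as well.

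The coding and non-coding rows behaved differently in wells with no cell. The non-coding row Sfrs3 was found in 1 of 150 no-cell wells and Sfrs7 in 10 of 150, against 74 for the coding row of Srsf3 and 44 for that of Srsf7. In cells Sfrs3 was found in 34.3% and Sfrs7 in 67.6%. Both were called higher in cells, by 4.37 ± 0.54 and 4.21 ± 0.81 (limma adjusted p = 7.9e-05 and 0.00057).

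The mean of the Srsf7 non-coding row was 86.2, 72.3 and 89.6 FPKM on HSC plates 1, 2 and 3. MPP1 plates 1 and 2 had 92.1 and 85.9 FPKM, bled HSC 52.8 FPKM and bled MPP1 66.4 FPKM. Its part of the summed mean of both Srsf7 rows ran from 19.3% on HSC plate 2 to 63.5% on MPP1 plate 1. The non-coding row stayed between 52.8 and 92.1 FPKM while the coding row ran from 52.9 to 303 FPKM.

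The Srsf3 non-coding row was lower, at 24.8, 17.4 and 28.3 FPKM on HSC plates 1, 2 and 3. MPP1 plates 1 and 2 had 42.7 and 29.1 FPKM, bled HSC 14.2 FPKM and bled MPP1 7.04 FPKM. Bled MPP1 lay 1.91 below the lower MPP1 plate on the log2 scale, and the coding row of Srsf3 lay between the MPP1 plates. Without each plate's highest cell the non-coding row was still 1.296 below. Of 9674 genes, 6.51% lay at least 1 below both MPP1 plates.
Per cell, both Srsf7 rows were found together in 190 cells, the coding row alone in 81, the non-coding row alone in 62 and neither in 40. Reads in exons that both transcripts share can be assigned to either row by the estimator, so the split between rows is uncertain.

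**Figure D3:**
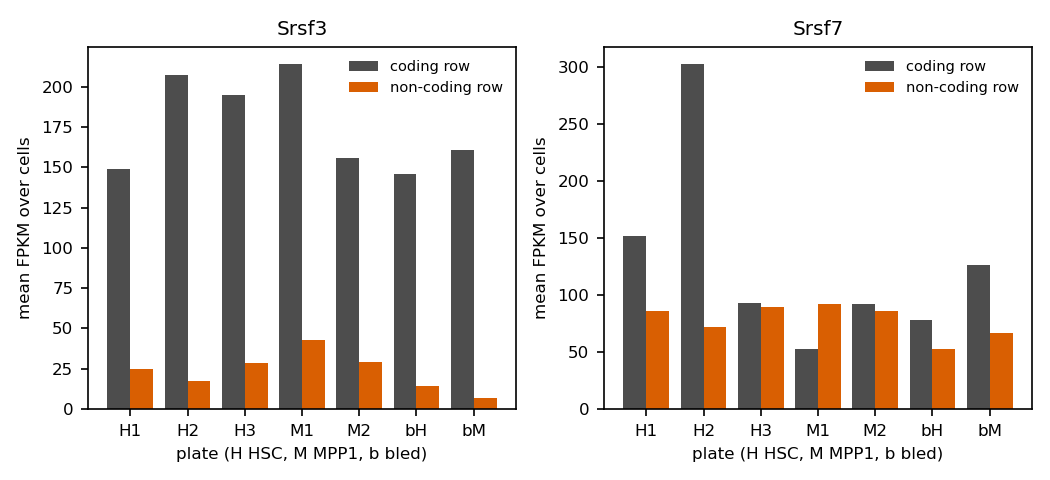
Mean FPKM over cells of the coding (grey) and non-coding (orange) rows of Srsf3 and Srsf7, by plate (H1 to H3 HSC, M1 and M2 MPP1, bH and bM bled). The Srsf3 non-coding row is lowest on the bled MPP1 plate at 7.04 FPKM, and the Srsf7 rows are about equal on HSC plate 3.

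MPP1 was compared with HSC over 2 plates of each, to ask how SR genes differ at the first step from the stem cell. All 9 passed the filter on low values and none passed the limma test, where 1 of 9833 genes (0.0102%) was called and 667 (6.78%) had an unadjusted p under 0.05. The called gene, named after its values were seen, was Snora30, a small nucleolar RNA, listed at 0 on HSC plates 1, 2 and 3, at 419 and 350 FPKM on MPP1 plates 1 and 2, and at 0 on both bled plates.

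Srsf7 had the smallest p of the 9. Its mean was 152 and 303 FPKM on HSC plates 1 and 2 and 52.9 and 91.9 FPKM on the MPP1 plates. HSC plate 3 was at 92.9 FPKM, beside MPP1 plate 2. The log2 difference was -1.61 ± 0.49 (limma p = 0.0057, adjusted p = 0.54). The share of cells with Srsf7 overlapped between the groups.

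Srsf10 pointed the other way. It averaged 26.4 and 41.0 FPKM on HSC plates 1 and 2, and 52.5 and 122 FPKM on the MPP1 plates. HSC plate 3, at 44.6 FPKM, also lay under both MPP1 plates. The log2 difference was 1.26 ± 0.56 (limma p = 0.042, adjusted p = 0.72). The share of cells with Srsf10 was 64.0% and 75.5% on HSC plates 1 and 2 and 78.4% and 79.2% on the MPP1 plates.

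Srsf6 was 46.0 ± 4.2 FPKM (SD, n = 2) in HSC and 29.0 ± 3.1 FPKM in MPP1. The log2 difference was -0.65 ± 0.53 (limma p = 0.25, adjusted p = 0.86). The difference in its share of cells, MPP1 minus HSC, was -8.44 percentage points, with both MPP1 plates under all HSC plates. The exact two-sided permutation test gave p = 0.33, the smallest that 2 against 2 plates allow. The same MPP1 plates entered the rule by which the genes were chosen, so these tests of Srsf6 are not independent of that choice. Of 9122 genes, 15.5% had both MPP1 plates below both HSC plates in share and 21% above. Srsf10 was the 1 SR gene with both above, and Srsf6 the 1 with both below.

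Of the remaining genes, Srsf9 had a log2 difference of 1.44 ± 0.74 and Srsf4 one of 0.86 ± 0.94. The value of Srsf9 was 2.46 without MPP1 plate 1, 0.42 without MPP1 plate 2 and 0.99 without each plate's highest cell. For Srsf9 the cell of 2382 FPKM on MPP1 plate 2 made up most of that plate's 73.8 FPKM. Srsf5 had 0.75 ± 0.46, Srsf2 -0.43 ± 0.38, Srsf1 -0.24 ± 0.73 and Srsf3 0.06 ± 0.42. Over the 9 genes the median was 0.06, against -0.04 over all genes tested.

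**Figure D4:**
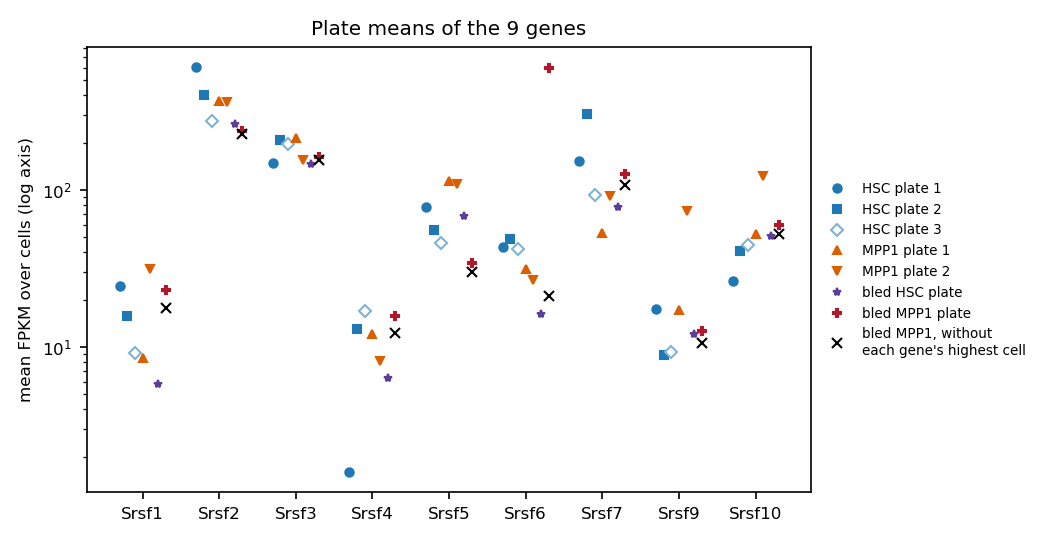
Mean FPKM over cells for each gene and plate on a log axis, with black crosses for bled MPP1 without each gene's highest cell. Srsf6 on the bled MPP1 plate moves from 596 to 21.1 FPKM, and the other 8 genes move less.

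Bled HSC was compared with normal HSC in a limma fit of 4 groups over 6 plates, in which the spread came from the normal plates. The single bled plate is assumed to vary like them, so the SE and p values hold no measured spread between bled plates. No gene of 10017 was called (0%), and 659 (6.58%) had an unadjusted p under 0.05. Srsf6 was among the latter, with a log2 difference of -1.44 ± 0.52 (limma p = 0.028, adjusted p = 0.75). The single bled plate, at 16.2 FPKM, lay under the HSC plates by more than they differ from each other. The fit also held the MPP1 plates and the bled MPP1 plate that the choice of genes rests on. Its test of Srsf6 is therefore not independent of that choice.

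Other SR genes were also lower on the bled HSC plate without passing. Srsf1 averaged 5.83 FPKM there against 24.6 and 15.7 FPKM on HSC plates 1 and 2, a log2 difference of -1.60 ± 0.92. Srsf7 averaged 78.1 FPKM, a difference of -1.45 ± 0.61. Srsf2 averaged 262 FPKM against 605 and 404 FPKM, a difference of -0.91 ± 0.44. HSC plate 3 stood at 9.14 FPKM for Srsf1, 92.9 FPKM for Srsf7 and 276 FPKM for Srsf2, nearer to the bled plate than HSC plates 1 and 2 were. For Srsf6 HSC plate 3 stood with the other HSC plates. An effect of bleeding cannot be told apart from one of the single plate.

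In bled MPP1, described with no test, the members differed in direction. Srsf5 averaged 34.3 FPKM, against 114 and 109 FPKM on the MPP1 plates, and lay 1.64 below the lower of them on the log2 scale. Srsf5 and Srsf6 were the only 2 of the 9 at least 1 beyond both MPP1 plates, where 9.79% of genes lay that far above and 6.51% below. Srsf2 averaged 239 FPKM against 367 and 366 FPKM. Srsf7 averaged 127 FPKM, above both MPP1 plates, and was found in 88.0% of cells against 66.7% and 72.9%. Srsf1 was found in 62.0% of cells against 39.2% and 56.2%, while its mean lay between the MPP1 plates. Shares were above both MPP1 plates for 5 of 9 genes, beside the 56.7% of all genes given above. The bled plates stand in a table made separately from the normal plates, which cannot be told apart from bleeding.

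Immediate early genes, which respond to tissue handling, differed between these plates. Their summed mean over 10 genes was 993 and 966 FPKM on HSC plates 1 and 2, and 1434 and 2025 FPKM on the MPP1 plates. Bled HSC had 1694 FPKM and bled MPP1 1469 FPKM. Erythroid markers, 5 of 7 of them found by name, summed to 51.7 FPKM on the bled MPP1 plate and to 13.0 and 35.9 FPKM on the MPP1 plates. Most of these 3 sums was Gata1 alone, at 48.5 FPKM on the bled MPP1 plate and 11.2 and 33.6 FPKM on the MPP1 plates. HSC plates 1 and 2 had erythroid sums of 6.07 and 22.0 FPKM, and bled HSC 6.49 FPKM. Megakaryocyte markers, over 5 genes, summed to 79.6 and 77.1 FPKM on HSC plates 1 and 2 and to 243 and 195 FPKM on the MPP1 plates. For them bled HSC had 41.0 FPKM and bled MPP1 181 FPKM. The markers did not move together in MPP1 against HSC, where 2 of 4 tested were higher and 2 lower. Pf4 averaged 12.3 and 38.5 FPKM on HSC plates 1 and 2 and 230 and 138 FPKM on the MPP1 plates. Gp9 was at 56.7 and 32.0 FPKM against 10.4 and 30.3 FPKM, and Vwf at 8.04 and 4.16 FPKM against 0.73 and 2.38 FPKM. The part of these 3 lists in the SR gene values was not tested.

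Genes that act with SR proteins were taken as 5 lists. In MPP1 against HSC and in bled HSC against HSC, none of their 96 and 97 tested genes was called. Among other SR and SR-related factors 11 of 19 were higher in MPP1, with a median of 0.06. The smallest p was that of Srek1, a splicing regulator with an SR domain, at 1.03 ± 0.47 (limma p = 0.045, adjusted p = 0.72). It averaged 57.9 and 61.2 FPKM on HSC plates 1 and 2 and 99.2 and 151 FPKM on the MPP1 plates. Rbm39, a splicing factor with an SR domain, had 0.47 ± 0.43 and Acin1 -0.57 ± 0.62.

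Of the kinases and transport factors 8 of 10 were lower in MPP1, with a median of -0.26. The splicing kinase Clk1 was at 256 and 347 FPKM in HSC and 276 and 180 FPKM in MPP1, which overlap. The related kinases Clk2 and Clk4 had -1.19 ± 0.98 and -0.47 ± 0.53. Of hnRNP proteins, which often oppose SR proteins at exons, 16 of 26 were higher with a median of 0.19. Hnrnpa0 had 1.55 ± 0.50 (limma p = 0.0084, adjusted p = 0.60) and Hnrnpl 1.22 ± 0.53 (limma p = 0.039, adjusted p = 0.72), while Hnrnph2 had -0.91 ± 0.46. Of the core spliceosome 25 of 32 were higher with a median of 0.28, and the smallest p were those of Zrsr2 (1.67 ± 0.84), Prpf31 (-1.42 ± 0.77) and Snrpa (1.298 ± 0.726). Of the decay factors 8 of 9 were higher with a median of 0.35, with Upf3a at 1.86 ± 1.00, Smg5 at 1.17 ± 0.98 and Upf2 at 0.77 ± 0.81. Over all genes tested 48.4% were higher.

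In bled MPP1, 24 of 33 core spliceosome genes were higher than the mean of the MPP1 plates, with a median of 0.51. Other SR and SR-related factors were higher in 5 of 19 (median -0.27) and decay factors in 3 of 10 (median -0.27). Over all genes 52.8% were higher, with a median of 0.07.

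The 18 bulk populations, of 1000 cells each per the labels, have 1 library apiece and no replicate. Srsf6 was highest in MEP, the megakaryocyte-erythroid progenitor, at 331 FPKM, followed by GMP-11 at 221, CFU-E at 216, preGM at 199, GMP-7 at 187 and MPP4 at 183 FPKM. ProEry (164), CMP (137), preCFU-E (119), MKP (95.4), MPP3 (86.3), CLP (74.9), Mature_Meg (58.5), CLP_Sca1hi (49.6) and preMegE (36.6) followed. MPP1 (14.4), MPP2 (6.86) and HSC (0.88) were lowest. Without replicates it cannot be said which neighbours in this order differ. Fewer expressing cells and less RNA per cell cannot be told apart in bulk.

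In bulk, Srsf6 was thus lower in HSC than in MPP1, while in single cells its plate means were higher in HSC. The bulk HSC label carries CD34+, unlike the single-cell gate, and the protocols differ. Cd34 RNA, however, was at 25.2 FPKM in the bulk HSC library and at 1785.5 FPKM in bulk MPP1. The part of gate and protocol in the difference between bulk and single cells was not tested. The same bulk HSC library also had the lowest Srsf4 at 0.27 FPKM, and Srsf2 there was 63.9 FPKM against a median of 719 FPKM over populations.

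Srsf1, Srsf2 and Srsf4 also reached high bulk levels. Srsf2 ran from 2.89 FPKM in Mature_Meg to 2478 FPKM in preGM, Srsf1 from 3.17 FPKM in Mature_Meg to 355 FPKM in MEP, and Srsf4 to 417 FPKM in MEP. Srsf4, the rarest of the 9 in single cells, was thus among the higher ones in bulk. Mature_Meg had 1642 genes at FPKM 1 or more, the fewest of the 18. Its megakaryocyte markers were mixed, with Itga2b at 44.9 FPKM but Pf4 at 0.65, Gp9 at 1.11 and Vwf at 1.60 FPKM. The lymphoid marker Rag1 was at 93.0 FPKM there, and Ngp, a marker of other cells, at 44.0 FPKM. MKP had Pf4 at 39.4 and Vwf at 52.0 FPKM, but also the granulocyte-monocyte marker Elane at 596 FPKM. Population names are those of the labels.

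Srsf3, Srsf5, Srsf7, Srsf9 and Srsf10 stayed low in every bulk library. Srsf5 reached at most 0.74 FPKM, against 66.6 ± 16.1 FPKM (SD, n = 2) in single HSC. Srsf3 reached at most 4.09 FPKM, Srsf9 4.19, Srsf10 9.80 and Srsf7 11.2 FPKM. For Srsf7 and Srsf9 the bulk row names another transcript than the single-cell row. The median over populations was under 10 FPKM for 5 of 9 SR genes. The same held for 81.3% of the 4636 genes that were at least as high in single cells as the lowest SR gene.

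**Figure D5:**
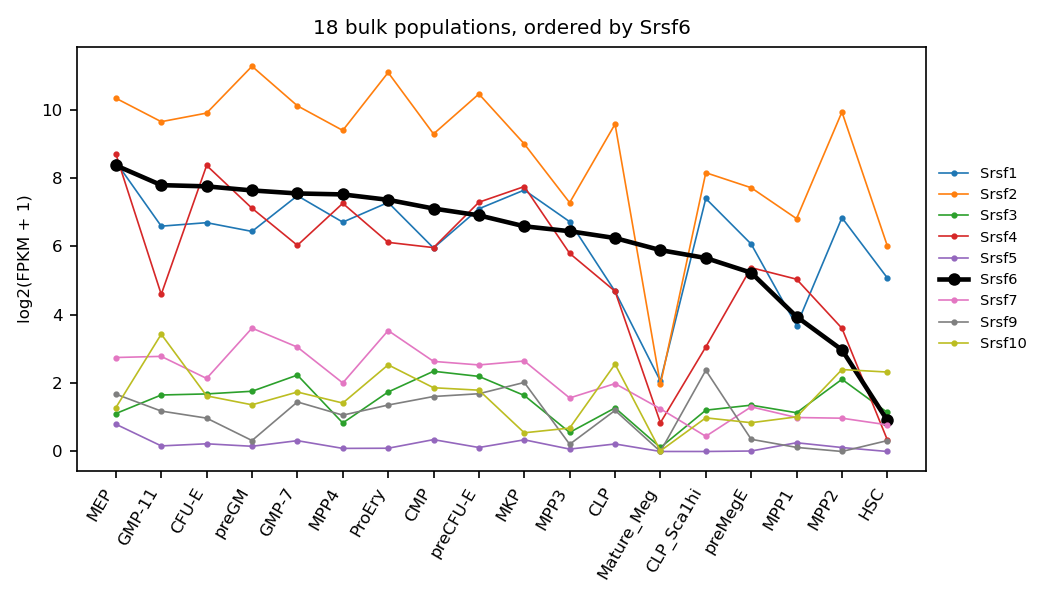
log2(FPKM + 1) of the 9 genes in 18 bulk populations, 1 library each, ordered by Srsf6 (thick black line). Srsf6 runs from 331 FPKM in MEP to 0.88 FPKM in HSC, and 5 genes stay near the bottom in all libraries.

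The bulk pattern of Srsf6 was nearest to that of Csl, a citrate synthase-like gene, with Pearson's r of 0.87 over 18 populations. Gars, a glycyl-tRNA synthetase, had 0.82. These were the highest of 4115 genes at FPKM 1 or more in at least 9 populations. Both were lowest in HSC, and their highest populations were CFU-E and ProEry. Of the SR genes Srsf7 (0.75) and Srsf4 (0.73) came nearest to Srsf6 and Srsf10 (-0.03) was farthest. The populations share the protocol and differ in the number of genes found.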

How the data were processed

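Single-cell and bulk RNA-seq values were used as FPKM, which the authors deposited. TopHat 1.3.3 and Cufflinks 1.2.1 on mm9, and Bowtie2 2.2.1 for HSC plate 3, are named in the submitters' processing notes. Low values did not fall on steps of whole reads, so depth is unknown.

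Rows were matched to symbols by RefSeq accession (21195 single-cell and 18326 bulk genes), then by symbol or synonym. The replicate was the plate. Mean FPKM over cells was taken as log2(mean + 1) for genes averaging FPKM 1 or more over the profiles, and tested two-sided with limma 3.58.1 (R 4.3.3; trend, empirical Bayes, Benjamini-Hochberg threshold 0.05 over all genes). MPP1 was compared with HSC, bled HSC with HSC, and cells with wells of no cell. Nothing in the labels says whether plates came from separate mice beyond their numbering as biological replicates, so p-values measure the spread between these plates, which may be technical.

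On simulated data for MPP1 against HSC (9833 genes), changes of 4 log2 units were recovered in 0 of 200 genes and changes of 6 in 85. The simulation took each gene's spread from its own 2 plates per group, which estimate it poorly. It therefore does not set the smallest change that the test on the real plates can find.

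All 9 members are named. Some genes that a rule or result would name are not reported here. Of each list, genes past the threshold and up to 3 with the smallest p in MPP1 against HSC were named. Calls of list genes against no-cell wells are not listed. The members and lists were chosen with earlier results of these data known.

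Whether plate numbers pair the plates is not known. Deviations of HSC plate 1 and MPP1 plate 1 from their group means correlated at 0.04 over genes. With so few plates this correlation cannot exclude pairing. Alternatives are in the closing section, and those leaving out each gene's highest cell, and the median over cells, were chosen after seeing the data.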

Additional observations from a re-analysis of the deposited data

Results flagged for a closer look

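Srsf6 went opposite ways on the bled plates: its mean lay under both HSC plates in bled HSC and over both MPP1 plates in bled MPP1. The log2 difference between bled and normal was 5.76 larger in MPP1 than in HSC. The difference was not tested, and it rests on the 1 cell at 28778 FPKM. Srsf7 also lay under both HSC plates in bled HSC and over both MPP1 plates in bled MPP1, with a gap of 2.30 that was not tested either.

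The 62 wells labelled with 2 or more cells entered no comparison. There Srsf2 reached FPKM 1 in 98.4% of wells, Srsf3 and Srsf5 each in 93.5%, Srsf7 in 83.9% and Srsf10 in 79.0%. Srsf6 did so in 66.1%, Srsf9 in 59.7%, Srsf1 in 53.2% and Srsf4 in 38.7%. For each gene this was above its share over the 150 wells with no cell, which ran from 2.67% for Srsf9 to 49.3% for Srsf3.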

How the results depend on the processing

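With 2 plates a group, 1 bled plate of each kind and unknown depth, the precision is low. Where a count below did not keep its size, the cause was not tested.

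In MPP1 against HSC, where 1 gene was called, the count was 6 on a TPM scale, 38 with the mean of log2 values over cells, 2 with no filter on genes per cell, 8 without each gene's highest cell and 0 with no filter on low values. Leaving out any 1 plate gave 0 in each case. With the plate number as a replicate block the count was 58, no SR gene among them, and the numbers are not known to pair the plates. The block changed no call of the 9 genes, but Srsf7 came nearer to the threshold. It had limma p = 0.00061 and adjusted p = 0.086 with the block, against 0.0057 and 0.54 without it. In bled HSC against HSC, where no gene was called, the count was 8 with the mean of log2 values, 222 with no filter on low values and 1 with HSC plate 3 added. No SR gene was called in either comparison under any alternative.

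In bled MPP1 1 SR gene, Srsf6, lay at least 1 log2 unit above both MPP1 plates. The number was 0 with the mean of log2 values, with cells of at least 2000 genes, without each gene's highest cell and with the median over cells. Leaving out 1 MPP1 plate gave between 1 and 3 genes above, and between 1 and 3 below. With cells of at least 2000 genes the difference of Srsf6 reversed to -0.49, since the well with 1508 genes drops out.

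In cells against no-cell wells the count of 6698 genes stayed within 1.5 times under every alternative run (5354 to 6639 when 1 plate was left out). The call of Srsf1 was lost with a pseudocount of 0.1 (adjusted p = 0.052) and that of Srsf5 on the TPM scale (adjusted p = 0.11), both by limma. Calls of Srsf3, Srsf4 and Srsf7 were gained with the mean of log2 values and without each gene's highest well, and that of Srsf7 also with no plate block and without MPP1 plate 1.

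Directions that were not called reversed as follows. For MPP1 against HSC, Srsf1 became 0.19 (mean of log2), 0.044 (no gene filter), 0.015 (without the highest cell) and 0.11 (HSC plate 3 added). With a plate left out Srsf1 ran from -1.13 to 0.65, Srsf3 from -0.18 to 0.29 and Srsf4 from -0.35 to 2.08. Srsf6 became 0.34 with no gene filter. For bled HSC, Srsf3 became 0.091 with no gene filter. Srsf4 became -0.31 (mean of log2), -1.91 (2000 genes), -1.41 (without the highest cell), and -0.23 (HSC plate 3 added), and ran from -0.92 to 1.51 with a plate left out. Srsf5 became -0.078 (2000 genes) and ran from -0.19 to 0.30. Srsf9 became 0.58 (mean of log2), 0.014 (2000 genes), 0.21 (no gene filter), 0.27 (without the highest cell) and 0.092 (HSC plate 3 added), and ran from -0.49 to 0.40 with a plate left out. The non-coding rows became 0.22 for Sfrs3 (2000 genes) and 0.079 for Sfrs7 (no gene filter).

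Shares of cells, as MPP1 minus HSC in percentage points, reversed for Srsf6 to 1.01 with detection at FPKM 5 and for Srsf1 to -5.31 with detection above 0. The Sfrs3 row became 6.19 with detection at FPKM 5 and 2.87 with 2000 genes. With a plate left out, shares ran from -2.31 to 14.7 for Srsf1, -7.39 to 0.94 for Srsf2, -2.79 to 10.1 for Srsf4, -0.68 to 7.89 for Srsf5, -15.1 to 3.79 for Srsf7, -1.26 to 18.2 for Srsf9, -8.22 to 7.17 for Sfrs3 and -6.98 to 2.61 for Sfrs7.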
